A study of Mus musculus with 32 samples.

Results

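RNA from heavy polysomes of induced 3T3-tTA-eIF4E cells was hybridized against total RNA of the same cell line on spotted mouse cDNA arrays. The samples were chosen by their titles, Polysomal 1 to Polysomal 8, and are 8 of the 32 samples in the series. They come from 4 of its 16 arrays, because each array is listed once for each of 2 duplicate spots, which were averaged here. 3T3-tTA-eIF4E is an NIH 3T3 fibroblast line in which a tetracycline-repressed transactivator (tTA) drives an eIF4E transgene, so that eIF4E is made when tetracycline is withdrawn. The parental line 3T3-tTA carries the transactivator alone. Both lines were cultured without tetracycline for 5 h, cycloheximide was added to hold ribosomes in place, and fractions 18 to 24 of a 10% to 50% sucrose gradient were pooled as heavy polysomes. Each array is named after the first of its 2 samples. Polysomal RNA of 3T3-tTA-eIF4E was labelled with Cy5 on P1 and P3 and with Cy3 on P5 and P7. Polysomal RNA of 3T3-tTA was labelled with Cy3 on P9 and P11 and with Cy5 on P13 and P15. For P1 to P7 the sample labels call the reference total RNA of uninduced cells, whereas the methods of the study describe total RNA of induced cells. For the parental arrays the labels name induced cells. The 4 arrays of a line are dye swaps made on 2 RNA extractions, and no source says which arrays go with which extraction, so an SD over 4 arrays stands for 2 extractions.

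Translation of most mRNAs begins when eIF4E, the subunit of the eIF4F complex that binds the cap, brings the mRNA to the small ribosomal subunit. eIF4G is the scaffold of that complex, eIF4A is its helicase, and eIF4E is held inactive by the 4E-binding proteins. An mRNA that is initiated often carries many ribosomes and sediments with heavy polysomes, and a short coding region leaves room for fewer of them. The mRNAs of ribosomal proteins start with a C followed by a run of pyrimidines (a terminal oligopyrimidine tract, TOP), and their loading is known to follow growth signals. The quantity given throughout is the log2 ratio of polysomal to total RNA of a clone, a spotted cDNA. The authors normalized each array over all of its spots by lowess, which levels ratios along spot intensity. So 0 is the level of the average clone of similar intensity on an array. A ratio above 0 means more of an mRNA in heavy polysomes than this average. It is not the share of an mRNA that is on polysomes.

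The annotated starts of some genes described below are shown with the letters that were searched for such a tract. The windows run from 5 bases before the annotated start to 20 bases from it, are given 5′ to 3′ on the strand of the gene, and were taken from RefSeq (GRCm38.p6). Capitals mark a C within 5 bases of the start and the run of pyrimidines behind it. Rpl38 lies at chr11:114668575-114668599 on the plus strand, Rps15a at chr7:118116128-118116152 and Rpl35 at chr2:39005112-39005136 on the minus strand, Fau at chr19:6057942-6057966 and Rps24 at chr14:24490673-24490697 on the plus strand, and Rpl15 at chr14:18270967-18270991 on the minus strand. Mif (chr10:75860258-75860282, minus strand), Cxcl1 (chr5:90891240-90891264, plus strand), Rpl13 (chr8:123102345-123102369, plus strand) and Irak1 (chrX:74023902-74023926, minus strand) are shown because they lie at the ends of the range, and none holds such a run at the annotated start. Abcb1b (chr5:8798142-8798166, plus strand) and Col4a1 (chr8:11312807-11312831, minus strand) are shown because they lie low and hold one, as do the starts of Col1a2 and Eif4g1, whose clones were also below 0 on all 4 arrays.
Rpl38: tcgttCTTTCCCCgttctcttcggt
Rps15a: gccatCTTCCCTCgccggtgagtga
Rpl35: CTTTCCTCTTTCTCTCgaaccaggc
Fau: caCTTCTTCCTCTTTCTTgactcca
Rps24: ggtCCTTCCTTgcgcgttgatatga
Rpl15: gCCTTCTTCCTTTCCTCTggcggca
Mif: gcggcagccggcttggggcggtact
Cxcl1: tccacaacaggactcagagcctcta
Rpl13: cctgattttgattggcgtttgagat
Irak1: gtggcggaaggccgcggagggcaag
Abcb1b: cctctggCTCCTTCCCgcagtggct
Col4a1: tCCCCTTggagacgccgcccgcgca

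The search looked only on the strand of the gene for a C in this stretch followed by at least 4 bases that are C or T. Of all 32851 starts in the table, 6027 (18.3%) held it. Of the 20 ribosomal protein genes of the lists below, 17 had a start and 9 of these (52.9%) held it. Among the other genes that the authors list as higher in polysomes it was found for 36 of 182 (19.8%), and among those listed as lower for 48 of 155 (31.0%). No match says only that these letters are not in this window, and an annotated start can differ from the start used in these cells.

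The transgene was used to check the labels. Eif4e was measured by 3 clones. In total RNA the log2 ratio of induced to uninduced 3T3-tTA-eIF4E cells was 3.79 ± 0.95 for clone H3130B02, 2.89 ± 0.90 for H3012A09 and 2.75 ± 0.55 for H3089A10 (SD, n = 4 arrays). In heavy polysomes the log2 polysomal/total ratio of H3130B02 was -0.12 on P1, 0.46 on P3, -0.01 on P5 and 1.22 on P7, with a mean of 0.39 ± 0.61 (SD, n = 4 arrays). Clone H3089A10 gave -0.16, 0.67, -0.25 and 0.94 on the same arrays, with a mean of 0.30 ± 0.60, and clone H3012A09 gave -0.30, 0.56, -0.40 and 0.74, with a mean of 0.15 ± 0.58. P3 and P7 were above 0 and P1 and P5 below 0 for all 3 clones. Limma on extraction means gave adjusted p-values of 0.766, 0.874 and 0.962. The parental line, in which the gene is not induced, had mean ratios of 0.46, 0.37 and 0.12 for the same clones, and the arrays of the lines overlapped for all 3. The polysomal/total ratio minus the induction in total RNA was -3.40, -2.45 and -2.74 log2 units. A reference of uninduced cells would leave the induction in the ratio, so the values go against the reference named in the labels, and ratios are read here against total RNA of induced cells.

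**Figure D1:**
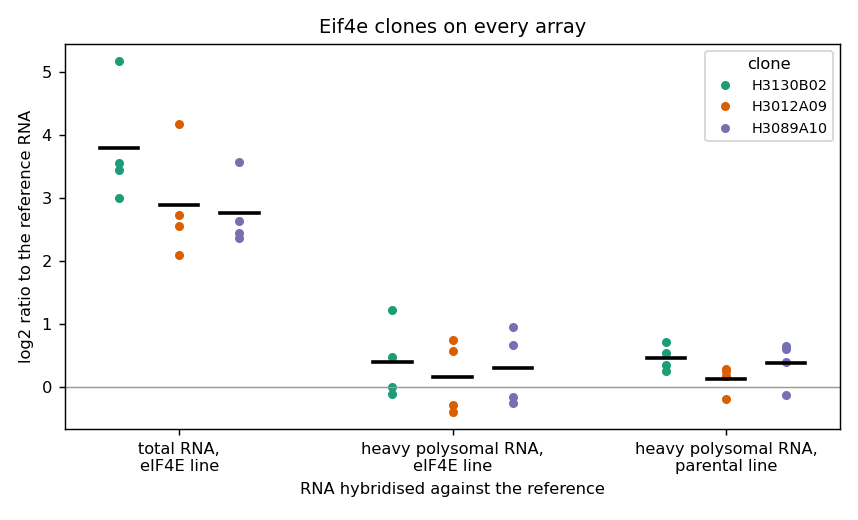
Log2 ratio to the reference RNA (vertical axis) of the 3 Eif4e clones on each array, with the mean of 4 arrays as a bar. Total RNA of induced over uninduced 3T3-tTA-eIF4E cells had means of 2.75 to 3.79, while heavy polysomal over total RNA had means of 0.15 to 0.39 in the same line and 0.12 to 0.46 in the parental line.

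Over all 15247 clones the mean log2 polysomal/total ratio of 3T3-tTA-eIF4E ran from -2.29 to 1.95 with a median of 0.03, and its quartiles lay at -0.15 and 0.21. At least 2-fold above the average were 165 clones, of which 140 were above 0 on all 4 arrays, and at least 2-fold below were 149, of which 147 were below 0 on all 4. Limma on means of the extractions, fitted with every possible assignment of arrays and keeping the largest p, called 0 clones (0%) at an adjusted p under 0.1 and at least 1.3-fold. The smallest adjusted p was 0.127. An unadjusted p under 0.05 was reached by 803 clones above 0 (5.27%) and by 599 below 0 (3.93%). With the 4 arrays counted as replicates, limma called 420 clones as higher (2.75%) and 276 as lower (1.81%). Among the 5873 clones with a spot signal over 2 times the background in both channels of P3 and P7, the extraction fit called 323 as higher (5.50%) and 203 as lower (3.46%). Without any test, 1888 clones (12.4%) were above 0 on all 4 arrays and 1683 (11.0%) below 0 on all 4. None of the clones described below was called by limma on extraction means over all clones, and counts by the other criteria are set beside these shares. Of the 72 clones chosen by rule, 35 were above background, a limit that both duplicate spots had to pass. The others were the Eif4e clone H3130B02 and the Tomm20 clone H3025F06, and those of Rpl38, Rps13, Rpl7a, Eif4g1, Ybx2, Lars, Nars, Timm23, Dld, Cxcl1, Crtap, Dcn, Col4a1, H2afz, Pttg1, Cdkn1c, Chaf1a, Apc, Timeless, Nfyc, Meis1, Ctnnb1, Rbx1, Ube2l3, Usp9x, Gpx4, Osbpl1a, Dgat2, Hmgcs1, Hdlbp, Bnip3, Abcb1b, Pax6, Cd34 and Hbb-y. A clone outside the limit was not always dim on average, with signals of 18.8 times background for the Eif4e clone H3130B02 and 17.9 for Rpl38. Leaving out 1 array moved the mean of 26 of the 72 by over 1.5 times or across 0, with the Cy5 and Cy3 arrays weighted equally.

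Gene names can be given only for 570 clones, because the names deposited beside the values belong to other rows. They were recovered from the values that the authors print for the clones in their lists of regulated mRNAs. Of these, 301 are listed as higher and 242 as lower in heavy polysomes of 3T3-tTA-eIF4E than of the parental line, on these same arrays. The authors list 29 for total RNA, of which 2 are also among the polysomal ones. The direction of a clone listed for polysomes is therefore not independent evidence, and the gene lists below are made up of such clones except for 10 that are listed for total RNA alone and have no listed polysomal direction (the 3 Eif4e clones, Sars, Pttg1, Col1a2, Dcn, Bgn, Spp1 and Serpinf1). The parental ratio is given beside each list for that reason.

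The ribosomal protein clones that could be named lay high in the range. Others on the array are not on the authors' lists and were not analysed here, so the counts describe the listed clones and not the family. The lists held 26 clones of 20 genes, and 25 of them had a mean above 0, with 23 (88.5%) above 0 on all 4 arrays against 12.4% of all clones. The median log2 ratio was 0.95, against 0.03 for all clones and 0.30 for the same clones in the parental line. Clones of the small subunit (9 clones of 7 genes) had a median of 1.04 and ranged only from 0.68 to 1.16, and all 9 were above 0 on all 4 arrays. Those of the large subunit (17 clones of 13 genes) had a median of 0.75 and ranged from -0.38 to 1.298, with 14 above 0 on all 4 arrays. By limma on extraction means 21 of the 26 had an unadjusted p under 0.05 in the higher direction (5.27% of all clones), and with arrays as replicates 15 were called (2.75% of all clones). Of the 26, 23 were above background, and 16 of these were called in the fit of clones above background (5.50% of those clones). The authors list 25 of the 26 as higher, which fixes part of these counts. The 276 other clones that they list as higher had a median of 0.39, and 131 of them were above 0 on all 4 arrays.

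**Figure D2:**
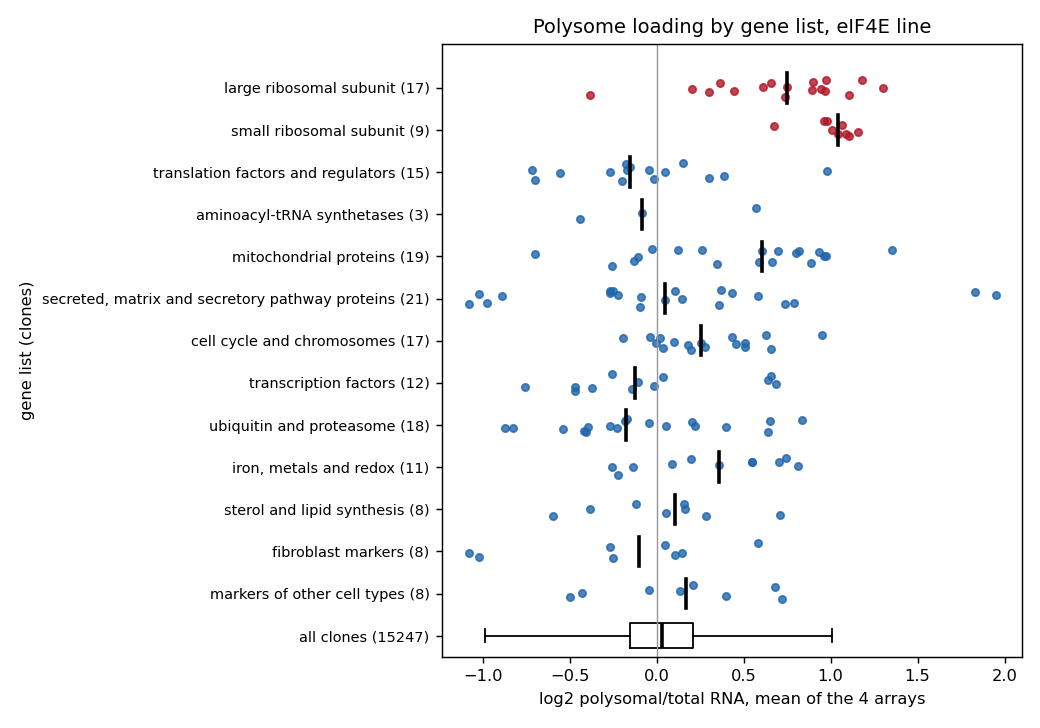
Mean log2 polysomal/total ratio over the 4 arrays of 3T3-tTA-eIF4E (horizontal axis), 1 point for each clone of 13 gene lists, with the list median as a black bar. The lowest line gives all 15247 clones (box from the lower to the upper quartile, -0.15 to 0.21, and whiskers from the 1st to the 99th percentile). Ribosomal protein clones (red) have medians of 0.75 and 1.04, and the median of every other list lies between -0.18 and 0.60.

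Among the large subunit proteins, Rpl13 (H3111G11) had log2 ratios of 0.94 on P1, 1.43 on P3, 1.43 on P5 and 1.40 on P7. The mean was 1.298 ± 0.24 (SD, n = 4 arrays), a 2.46-fold ratio (limma, adjusted p = 0.18), and P1 alone was below the others. Rpl35 (H3117C06), one of the genes with a long pyrimidine run at its start, gave 0.87, 1.35, 1.05 and 1.44, a mean of 1.18 ± 0.27 (SD, n = 4 arrays; limma, adjusted p = 0.22). Both were above 0 in the parental line too, at 0.82 and 0.70. Rpl38 is not in the list, since the authors give its clone H3122F02 under an older name and it was recognised by its accession. It gave 1.20, 1.45, 1.32 and 1.63, and all 4 arrays were above every parental array. Its mean was 1.40 ± 0.18 (SD, n = 4 arrays; adjusted p = 0.14 from limma), from spots that were not above background in each channel. A second Rpl38 clone, H3141B12, had a mean of 0.49 ± 0.41.

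The small subunit proteins were closer together. Rps26, a protein of the mRNA exit channel of the subunit, was measured by 2 clones. H3035A02 gave 1.14, 1.53, 1.07 and 0.89 on P1, P3, P5 and P7, a mean of 1.16 ± 0.27 (SD, n = 4 arrays), and H3120B03 gave 0.64, 0.60, 1.02 and 0.44, a mean of 0.68 ± 0.25. No array of the second reached the mean of the first, although they report on the same gene. The 2 clones of Rps24 were alike, with means of 1.10 ± 0.20 (H3145D11) and 1.07 ± 0.19 (H3145D12), and adjusted p-values from limma of 0.19 for the first and for the higher Rps26 clone. Rps13 (H3114C12) gave 0.80, 1.67, 0.82 and 0.55, a mean of 0.96 ± 0.49 (SD, n = 4 arrays) that rested most on P3. Fau, which encodes ribosomal protein S30 fused to a ubiquitin-like peptide, had a mean of 0.98 ± 0.53, with 0.21 on P1 and 1.04 to 1.41 on the others. A cDNA spot can also bind transcripts of near-identical copies, which are many for ribosomal protein genes.

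Rpl3 (H3122F09), the only ribosomal protein clone that the authors list as lower, had the lowest mean of the large subunit clones. It gave -0.72, -0.42, -0.58 and 0.19 on P1, P3, P5 and P7. Its mean of -0.38 ± 0.40 (SD, n = 4 arrays) was not called (limma, adjusted p = 0.72), and P7 was on the other side of 0. Without P5 it was -0.19. In the parental line it had a mean of 0.20. Rpl7a (H3144G03), the next lowest and not above background, gave 0.27 and 0.77 with polysomal RNA in Cy5 and -0.07 and -0.15 with Cy3, so that its mean of 0.20 ± 0.42 changed sign with the dye, and it was 0.08 without P3. Its annotated start holds a pyrimidine run, as do those of Rpl35 and Rps24. The ratios of Rpl15 also differed by dye. Clone H3027H01 gave 1.14 and 2.06 in Cy5 against 0.63 and 0.07 in Cy3, and clone H3087E03 gave 2.20 and 1.14 against 0.40 and -0.15. The first of these clones was above background and the second was not.

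Outside the ribosome, Mif had the highest mean of all clones. It encodes macrophage migration inhibitory factor, a secreted cytokine with a very short coding region. Clone H3019C07 gave 1.90 on P1, 1.96 on P3, 1.61 on P5 and 2.33 on P7, a mean of 1.95 ± 0.30 (SD, n = 4 arrays), which is 3.87-fold (limma, adjusted p = 0.17). The lowest of these arrays was above the mean of 1.23 in the parental line, though the parental arrays reached 1.89. Cxcl1 (H3051F10), a chemokine for neutrophils, gave 1.13, 1.88, 2.03 and 2.28, a mean of 1.83 ± 0.49 (SD, n = 4 arrays), which is 3.56-fold (limma, adjusted p = 0.19). Its arrays did not overlap with those of the parental line, which gave 0.48, 0.36, 0.55 and -1.29. The spot of Cxcl1 was not above 2 times background in both channels.

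Other clones near the top encode proteins of many kinds. H2afz (H3009F03), the histone variant H2A.Z, gave 1.16, 1.47, 1.69 and 1.79, a mean of 1.53 ± 0.28 (SD, n = 4 arrays), and the parental mean was nearly as high at 1.49 ± 0.91. Timm23 (H3032A01), the channel of the mitochondrial inner membrane import complex, gave 1.54, 0.94, 1.12 and 1.82, a mean of 1.35 ± 0.40. Ppp1r14b (H3054C06), an inhibitor of protein phosphatase 1, had the same mean to 2 decimals but spread over 0.50, 2.32, 1.07 and 1.49 (SD 0.77), and without P3 its mean was 0.89. Spsb1 (H3131C05), a substrate adaptor of ubiquitin ligases, gave 0.80, 1.00, 1.36 and 2.02, a mean of 1.296 ± 0.54. Both Cy3 arrays of H2afz and Spsb1 were above both Cy5 arrays. Adjusted p-values from limma for these 4 clones lay between 0.19 and 0.27. Of the clones without a gene name, H3009D05 (1.60 ± 0.62) and H3003A03 (1.54 ± 0.55) had the highest means, and their parental means were 1.37 and 1.16. In both of these clones, as in Cxcl1, the Cy3 arrays were also all above the Cy5 arrays.

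**Figure D3:**
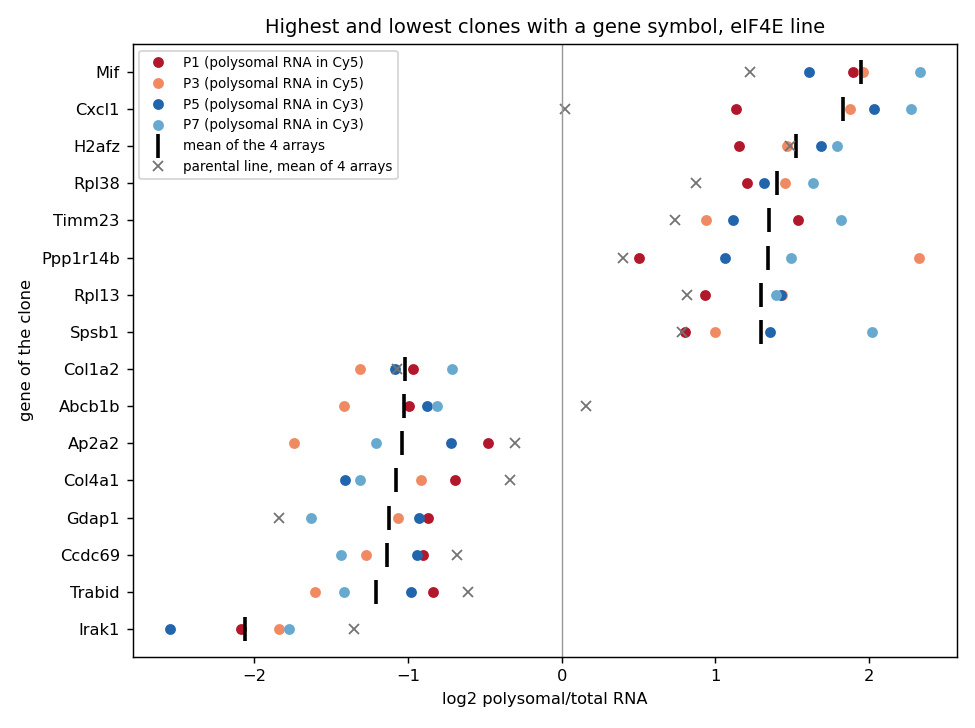
Log2 polysomal/total ratio (horizontal axis) of the 8 highest and the 8 lowest clones with a gene symbol, among those on the same side of 0 on all 4 arrays of 3T3-tTA-eIF4E. Points are arrays, red with polysomal RNA in Cy5 and blue in Cy3, bars are means, and crosses are parental means. The parental mean of Cxcl1 is 0.02 against 1.83, while those of H2afz and Col1a2 lie at the mean of the eIF4E line.

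Proteins of the mitochondrion formed the next highest list. Of 19 clones of 17 genes, 14 had a mean above 0, and 12 (63.2%) were above 0 on all 4 arrays against 12.4% of all clones. The median was 0.60, and 0.07 in the parental line, and 15 of the 19 are listed by the authors as higher. Cox8a (H3009E08), a subunit of cytochrome c oxidase, gave 0.73, 0.74, 1.13 and 1.29, a mean of 0.97 ± 0.28 (SD, n = 4 arrays). Tomm20, a receptor of the outer membrane import complex, was measured by 3 clones that disagreed. H3038G11 had a mean of 0.96 ± 0.14 and H3152B10 one of 0.80 ± 0.27, both above 0 on every array, whereas H3025F06 had a mean of -0.03 ± 0.09. The first and the second were above background, and the spot of H3025F06 was not. Clone H3025F06 lay below all parental arrays and H3038G11 above them. The low end of the list held enzymes of the matrix. Pdha1 (H3043E06), of the pyruvate dehydrogenase complex, gave -0.41, -1.08, -0.45 and -0.86, a mean of -0.70 ± 0.33, and Dld (H3144G11), a subunit that this complex shares with others, had a mean of -0.26 ± 0.21, which was -0.15 without P3.

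Most of the listed clones of translation factors lay near or below 0. Of 15 clones of 13 genes, 5 had a mean above 0 (55.1% of all clones), 1 was above 0 on all 4 arrays (12.4% of all clones) and 3 were below 0 on all 4 (11.0%). The median was -0.15 in 3T3-tTA-eIF4E and 0.37 in the parental line. It was -0.06 on the Cy3 arrays, -0.03 without P1 and, on the other side of 0, 0.07 without P1 and P7. Of the clones 9 are listed as lower, which fixes part of these values. The 6 clones above background had a median of -0.01. The difference from the ribosomal protein lists was not tested. Eif1 (H3021C04), the factor that guards start codon selection, stood alone at the top with 0.90, 1.25, 0.78 and 1.00 and a mean of 0.98 ± 0.20 (SD, n = 4 arrays). The adjusted p over all clones was 0.22 in limma, and the 4 arrays lay above those of the parental line. Eif4g1 (H3040G06), the scaffold to which eIF4E binds, gave -0.76, -0.57, -0.81 and -0.66. Its mean of -0.70 ± 0.10 (SD, n = 4 arrays) came from a spot below 2 times background, and the parental mean of -0.16 ± 0.11 was without overlap. The adjusted p was 0.27 against 0 and 1.00 for the difference between the lines, both from limma. Ybx2 (H3045E04), a germ cell protein that binds and masks mRNA, had a mean of -0.72 ± 0.35, from a spot below 2 times background. The 3 aminoacyl-tRNA synthetase clones had means of 0.57 ± 0.72 (Sars), -0.08 ± 0.24 (Lars) and -0.44 ± 0.29 (Nars), and Sars was at 0.22 and Lars at -0.01 without P3. Their median was -0.08, against 0.70 in the parental line, and 2 of the 3 are listed as lower.

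Secreted, matrix and secretory pathway proteins lay at both ends. Of 21 clones, 7 were above 0 on all 4 arrays (12.4% of all clones) and 4 below 0 on all 4 (11.0%), with a median of 0.05 (parental 0.12) that was -0.08 without P3. Mif and Cxcl1 were the highest, and a pair of collagens was the lowest. Col1a2 (H3136A07), a chain of type I collagen, gave -0.97, -1.31, -1.09 and -0.71, a mean of -1.02 ± 0.25 (SD, n = 4 arrays). The parental mean was -1.07 ± 0.39, so this low loading was measured in both lines. Col4a1 (H3159G06), a chain of basement membrane collagen, gave -0.69, -0.91, -1.41 and -1.31, a mean of -1.08 ± 0.34, against -0.33 ± 0.45 in the parental line. Adjusted p-values against 0 were 0.25 and 0.20 from limma. Crtap (H3044A03), needed to hydroxylate collagen, had a mean of 0.58 ± 0.23 and lay above all parental arrays, from a spot not above background.

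Regulators of transcription and of protein breakdown had medians below 0. Of 12 transcription factor clones 4 had a mean above 0 (median -0.13, parental 0.45), and of 18 ubiquitin and proteasome clones 7 did (median -0.18, parental 0.33), against 55.1% of all clones. The first median ran from -0.26 without P1 to -0.01 without P3 and P7, and the second was 0.00394 on the Cy3 arrays. For these lists 8 of 12 and 13 of 18 are listed by the authors as lower. Hmga2 (H3040E06), a chromatin protein of growing mesenchymal cells, gave -0.27, -0.36, -0.35 and -0.51, a mean of -0.37 ± 0.10 (SD, n = 4 arrays), and all parental arrays were above 0 with a mean of 0.55 ± 0.38. Ctnnb1 (H3031E05), beta-catenin, gave 0.00, -1.06, -0.15 and -0.68, a mean of -0.47 ± 0.49 against 0.83 ± 0.37, also without overlap, from a spot that was not above 2 times background in both channels, and it was -0.21 without P3. Jun (H3058C09) had a mean of -0.76 ± 0.66, and Nfyc (H3150B02) and Meis1 (H3154F09) were the highest factors at 0.69 ± 0.93 and 0.66 ± 0.68, neither above background. Without P3 the mean of Meis1 was 0.36 and that of Jun -0.43. The mean of Nfyc was 1.44 with Cy5 and -0.07 with Cy3. In the ubiquitin list Rbx1 (H3030F02), the RING subunit of cullin ligases, gave 0.75, 1.17, 0.64 and 0.77, a mean of 0.83 ± 0.23, and Ube2l3 (H3045C02), a conjugating enzyme, had a mean of 0.65 ± 0.18. At the low end Usp9x (H3018D06), a deubiquitinase, gave -0.96, -1.31, -0.75 and -0.29, a mean of -0.83 ± 0.43, and Ube2j2 (H3082H12) had a mean of -0.87 ± 0.75, which was -0.54 without P3.

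The lists of cell cycle, iron and redox, and sterol genes had medians above 0 over the 4 arrays. Without P3 that of the sterol list was -0.05 and that of the cell cycle list 0.10, and without P1 and P5 that of the iron list was 0.18. Cell cycle and chromosome clones had a median of 0.26 (parental 0.06), and 4 of 17 were above 0 on all 4 arrays (12.4% of all clones). Pttg1 (H3084H09), securin, had a mean of 0.95 ± 0.55 and Cdkn1c (H3097D03), a cyclin-dependent kinase inhibitor, one of 0.66 ± 0.88 that was 0.14 without P1, where it gave 1.91. Chaf1a (H3087E05), a histone chaperone, was at 0.10 ± 0.13, from a spot not above background and below all parental arrays (mean 1.07 ± 0.83), and Apc (H3080G10) and Timeless (H3140G01) were at -0.04 ± 0.23 and -0.19 ± 0.39. Without 1 array Chaf1a was as low as 0.04, and Apc was at 0.10 without P5 and Timeless at -0.05 without P7. The 11 iron, metal and redox clones had a median of 0.36 (parental -0.03), and 5 of them (45.5%) were above 0 on all 4 arrays against 12.4% of all clones. Of the 11, 8 are listed as higher. Mt2 (H3013D11), a metallothionein, had a mean of 0.81 ± 0.31, and Gpx4 (H3114A05), a lipid peroxidase, one of 0.74 ± 0.19, with adjusted p-values from limma of 0.76 and 0.71. The mRNA of the ferritin light chain, Ftl1, is known to be held off ribosomes when iron is scarce. Its 3 clones had means of -0.14 ± 0.63, -0.22 ± 0.60 and -0.26 ± 0.52 (SD, n = 4 arrays), from -0.59 to -0.80 on the Cy5 arrays and from -0.07 to 0.59 on the Cy3 arrays. Of 8 sterol and lipid clones (median 0.11, parental 0.12), Osbpl1a (H3119D12) had a mean of 0.71 ± 0.24 and Dgat2 (H3111G08), of triglyceride synthesis, one of 0.28 ± 0.44, or 0.06 without P3. Hmgcs1 (H3079F01), of the mevalonate pathway, had a mean of -0.38 ± 0.29, or -0.24 without P3, and Hdlbp (H3036C12), a protein that binds RNA, one of -0.60 ± 0.37. Bnip3 (H3136C07), a mitophagy receptor that the authors list both for total RNA and for polysomes, gave 0.86, 0.78, 0.36 and 0.63, a mean of 0.66 ± 0.22 against 0.07 ± 0.28 in the parental line.

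The lowest clone with a gene name was Irak1 (H3130B12), a kinase of Toll-like and interleukin receptor signalling. It gave -2.08, -1.84, -2.55 and -1.78, a mean of -2.06 ± 0.35 (SD, n = 4 arrays; limma, adjusted p = 0.22). The parental line gave -2.04, -1.96, -1.995 and 0.59, so that 3 of its arrays were as low. Trabid (H3066F12), a deubiquitinase, had a mean of -1.21 ± 0.36, Ccdc69 (H3059E12) one of -1.14 ± 0.26 and Gdap1 (H3058B12), a protein of the mitochondrial outer membrane, one of -1.12 ± 0.35. All of these were also below 0 in the parental line, and Gdap1 was lower there, at -1.84 ± 0.23. Ap2a2 (H3036A06), an adaptor of clathrin, had a mean of -1.04 ± 0.56. Abcb1b (H3052B06), a multidrug transporter, gave -0.99, -1.42, -0.87 and -0.81, a mean of -1.02 ± 0.27, while its parental arrays ranged from -0.83 to 2.40. The clones H3112E03 (-2.29 ± 0.42) and H3132A10 (-2.09 ± 0.29), which have no gene name, were lowest of all, and had parental means of -2.42 and -1.92.

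Loading in 3T3-tTA-eIF4E was compared with that in 3T3-tTA to see how much of it was shared. The mean ratios had a correlation of 0.63 across the 15247 clones and of 0.83 across the 5873 above background. The clones share the arrays, spots and dye orientations behind both means, and are not independent. For the difference between the lines, limma on extraction means gave an unadjusted p under 0.05 for 150 clones and a smallest adjusted p of 1.00. The study's methods pair the lines by dye and experimental set, but the sources used here do not name the set of an array. With arrays paired by dye in each of the 4 possible ways, a fit chosen after the data were seen, limma called 0 clones, and the smallest adjusted p was 0.74. All 4 arrays of 3T3-tTA-eIF4E were above all 4 of the parental line for 111 clones (0.728%) and below all 4 for 93 (0.610%). Of the 26 ribosomal protein clones 25 had a higher mean than in the parental line, 6 of them without overlap, a direction that is fixed by the choice of the authors, who list 25 as higher and 1 as lower. The parental line loaded them as well, with 20 of 26 above 0 and 10 above 0 on all 4 arrays (7.72% of all clones). The difference between the lines was 1.81 for Cxcl1 and -1.302 for Ctnnb1, each from a spot not above background, with an adjusted p of 1.00 from limma.

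**Figure D4:**
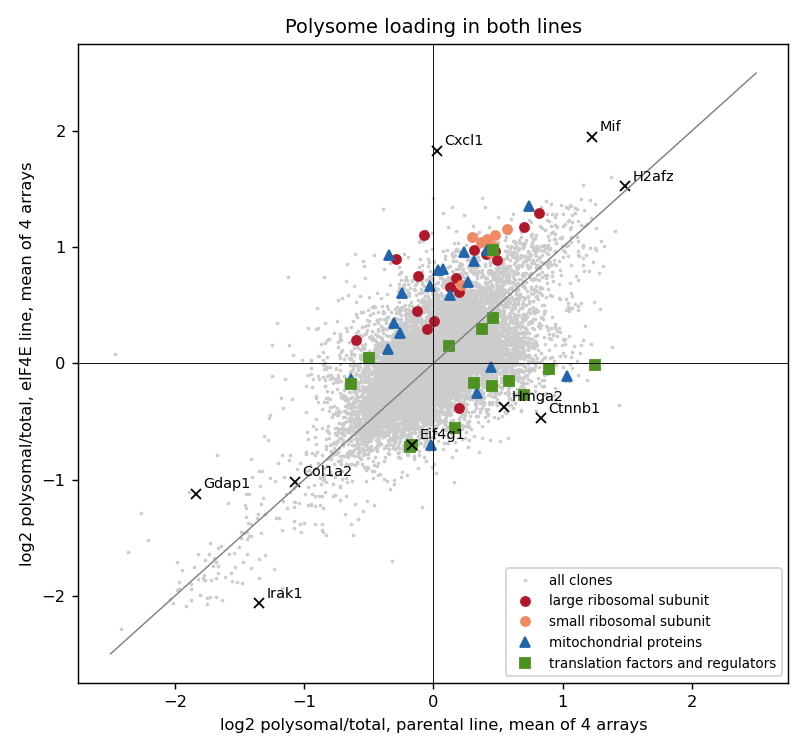
Mean log2 polysomal/total ratio of the parental line (horizontal axis) and of 3T3-tTA-eIF4E (vertical axis), each over 4 arrays, for all 15247 clones (grey), the ribosomal, mitochondrial and translation factor lists, and named examples. The diagonal marks equal ratios. Ribosomal protein clones lie above it except Rpl3, Cxcl1 lies at 0.02 and 1.83, and Irak1, Gdap1 and Col1a2 are below 0 in both lines.

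How far the 4 arrays gave the same ratios depended on the dye. Across all clones, arrays with the same dye on polysomal RNA had correlations of 0.43 (P1 and P3) and 0.54 (P5 and P7), and arrays with opposite dyes of 0.13, -0.04, 0.08 and, for P3 and P7, -0.37. Across the clones above background the correlations were 0.61 and 0.70 for the same dye and 0.29 to 0.52 for opposite dyes. The direction was kept as the labels state it. The mean of the Cy5 arrays and the mean of the Cy3 arrays had a correlation of -0.13 over all clones and of 0.47 over those above background. Between the lines, arrays with the same dye had correlations of up to 0.82 (P7 and P11). For ribosomal proteins the median was 0.85 on the Cy5 arrays and 0.83 on the Cy3 arrays. The SD across clones was 0.53, 0.86, 0.48 and 0.67 on P1, P3, P5 and P7.

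**Figure D5:**
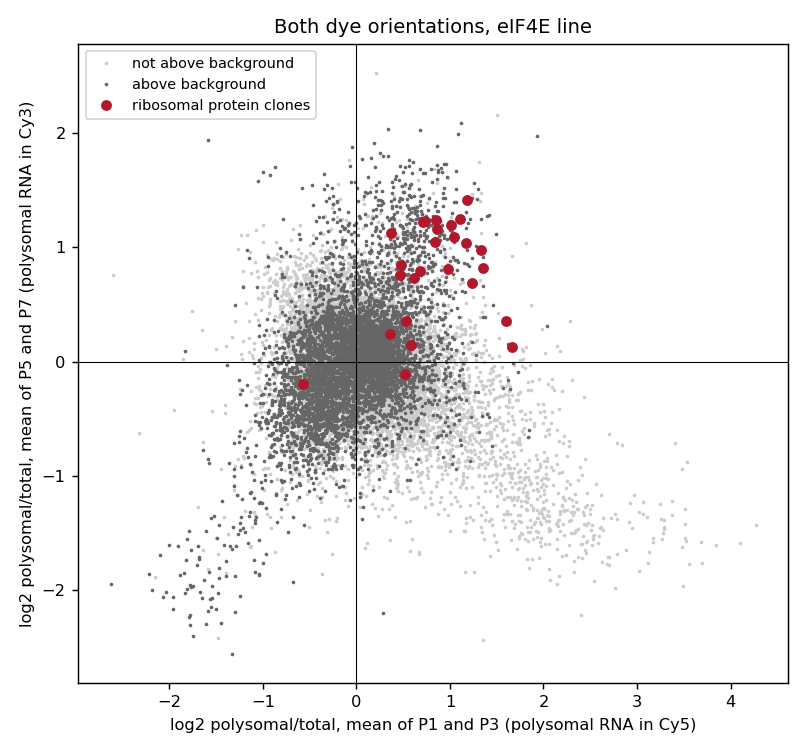
Mean log2 polysomal/total ratio of P1 and P3, with polysomal RNA in Cy5 (horizontal axis), and of P5 and P7, with polysomal RNA in Cy3 (vertical axis), 1 point for each clone. Clones not above background (light grey) form an arm of high Cy5 and low Cy3 values. Ribosomal protein clones (red) have medians of 0.85 and 0.83 on the axes, and Rpl3 is the only one of them below 0 on both.

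Signal and printed place moved with the ratios, and their part in the results was not tested. When clones were split into 5 groups of nearly equal size by signal, in the dimmest group the SD of the mean ratios was 0.18 and 4.66% were above 0 on all 4 arrays, against 0.44 and 18.8% in the brightest. Ribosomal protein clones had a median signal of 21.0 times background against 2.87 for all clones, and 25 of the 26 were in the 2 brightest groups. When the 48 printed grids were taken in 6 blocks of 8, blocks 2, 3 and 4 held 74, 78 and 66 of the clones listed as higher, and blocks 5 and 6 held 70 and 98 of those listed as lower. In block 6, 8.78% of all clones were above 0 on all 4 arrays and 15.5% below. Of the 8 lowest clones with a gene symbol, all but Col1a2 lay in block 6, and of the 8 highest only Ppp1r14b did. Eif4g1, Pdha1, Usp9x, Ube2j2, Hdlbp, Hmga2, Pecam1 and the Tomm20 clone H3025F06 were also in block 6. So were the higher clones of Rpl35, Rps13 and Osbpl1a. The ribosomal protein clones occurred in all 6 blocks, with medians from 0.61 to 1.11.

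The cells were checked against the fibroblast markers that can be named. The 8 clones had signals of 1.40 to 11.8 times background (median 2.41), and Col1a2 and Bgn were above background in both channels. Their ratios had a median of -0.10 (parental -0.08), which ran from -0.19 to -0.04 with arrays left out. The 8 markers of other cell types had signals of 0.688 to 22.6 times background (median 2.49). Pecam1, the brightest of both sets, was above background in both channels. All clones had a median signal of 2.87, so signal did not set the fibroblast markers apart. The median ratio of the markers of other cell types was 0.17, and -0.20 in the parental line. Pecam1 (H3052F06), of endothelial cells, had a ratio of -0.50 ± 0.21, Hbb-y (H3118A03), an embryonic globin, one of -0.43 ± 0.43, Cd34 (H3114H02) one of 0.68 ± 0.88 and Pax6 (H3122D02) one of 0.72 ± 0.69, the latter pair with P1 far above the other arrays. Without P3 the ratio of Hbb-y was -0.20. In RNA from whole cultures, fewer cells of a type and less RNA per cell cannot be told apart.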

How the data were processed

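Labelled cDNA was hybridized to spotted mouse cDNA arrays with 31200 spots, and per the study's methods the arrays were read with a GenePix scanner and normalized in limma by whole-array lowess, with no background subtracted. The values deposited by the authors are log2 ratios of Cy3 over Cy5, 1 sample for each duplicate spot. Ratios were turned by the dyes in the labels to polysomal over total RNA, and duplicate spots were averaged. Scanner intensities deposited by the authors for P3 and P7 gave the signal over background of each spot. The row names of the deposited table do not belong to its values. Of 584 entries in the paper's lists of regulated clones, 572 had their printed value, matched to 6 significant digits, in a single row, 9 in none and 3 in 2 rows. All 570 rows named in this way lay at the printed place of the clone number, and 416 were given a RefSeq symbol by accession. Array number limits the precision, since 4 arrays per line stand for 2 extractions.

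The ratio was tested against 0 with limma 3.58.1 in R 4.3.3 on extraction means over the 8 polysomal arrays. All 4 ways to assign arrays to extractions were fitted, and the largest p of a clone was adjusted by the Benjamini-Hochberg method over 15247 clones. Clones were called at an adjusted p under 0.1 and 1.3-fold. Clones named are those of 10 chosen genes, the 2 highest and 2 lowest of each of 13 lists, and the 8 highest and lowest with and the 2 highest and lowest without a symbol that had all 4 arrays on 1 side of 0. Rpl15, Fau, the Rps24 clone H3145D12, the Rpl38 clone H3141B12 and the sequences shown were chosen after values were seen. Members and lists were chosen with earlier results of these data known. The authors' fold changes and q-values were not used. Coding length was not analysed here.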

Additional observations from a re-analysis of the deposited data

Results flagged for a closer look

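In 4 of the 72 named clones 1 of the 4 arrays of 3T3-tTA-eIF4E stood apart from the other 3 by a gap that, as a share of the whole range, exceeded Dixon's limit for 4 values, where chance gives about 1 in 20. For Rpl13 (H3111G11) P1 was at 0.94 and the others between 1.40 and 1.43, a gap of 0.931 of the range. For Dgat2 (H3111G08) P3 was at 0.94 and the others between 0.01 and 0.12 (0.889). For Dcn (H3148D05), decorin of the matrix, P1 was at -0.01 and the others between 0.18 and 0.21 (0.842). For Dld (H3144G11) P1 was at 0.07 and the others between -0.37 and -0.36 (0.959). Of these clones only Rpl13 was above background. The medians of the 13 lists showed 0 such arrays.

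All arrays of the lines lay on opposite sides of 0 for 3 of the 72 named clones and for 24 of all clones (0.157%). The authors list Dgat2 as higher and the other 2 as lower in 3T3-tTA-eIF4E, so their direction was fixed by that choice, and Dgat2 and Hmgcs1 were not above background. Subtracting the parental mean from that of 3T3-tTA-eIF4E gave log2 differences of 0.456 for Dgat2 (0.28 and -0.17), -0.921 for Hmga2 (-0.37 and 0.55) and -0.710 for Hmgcs1 (-0.38 and 0.33). The test of the difference by limma gave an adjusted p of 1.00 for all 3.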

How the results depend on the processing

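The count of clones called against 0 was 0 with extraction means, with the eIF4E-line arrays alone, with either spot of a pair, with arrays centred, with the Cy5 arrays alone and with P3 and P7 recomputed from scanner values. It was 696 with arrays as replicates and a dye term (420 higher, 276 lower), 365 without the dye term (178, 187), 2641 with duplicate spots as replicates (1364, 1277), 916 with the smallest p over assignments (574, 342), 185 with arrays scaled to one spread (102, 83), 313 on the Cy3 arrays alone (193, 120) and 526 over clones above background (323, 203). Leaving out 1 array, in a fit with arrays as replicates, gave 202 without P1 (114 higher, 88 lower) and 49 without P3 (7, 42). It gave 81 without P5 (28, 53) and 42 without P7 (0, 42). The difference between the lines had 0 calls among the 72 named clones in these settings, and 20 with duplicate spots as replicates. List medians moved by more than the spread between arrays as follows. The large ribosomal list (0.75) ran from 0.645 to 0.820 with arrays left out. Translation factors (-0.154) were at -0.0479 with the second spot of each pair, -0.0635 on the Cy3 arrays and -0.00929 above background, and ran from -0.182 to 0.0678 with arrays left out. Synthetases were at 0.568 above background (1 clone). Mitochondrial proteins (0.605) were at 0.485 with the second spots and 0.699 above background, and ran from 0.509 to 0.636. Secreted proteins were at -0.113 on Cy3 arrays and 0.553 above background (-0.0814 to 0.206). Cell cycle clones were at 0.110 on Cy3 arrays and 0.507 above background (1 clone; 0.101 to 0.306). Transcription factors were at -0.420 above background (-0.260 to -0.00967 with arrays left out), and ubiquitin clones at 0.00394 on Cy3 arrays. With arrays left out the small ribosomal list ran from 0.872 to 1.22 and the iron list from 0.178 to 0.465. Neither was among the lists that moved by more than that spread. Sterol clones ran from -0.0757 to 0.139. Fibroblast markers were at -0.322 on Cy5 arrays and -0.485 above background, and other markers at -0.132 on Cy3 arrays, 0.483 on Cy5 arrays and -0.498 above background (1 clone; -0.132 to 0.200). The cause was not tested. Means that changed sign on the Cy3 arrays were those of Nfyc (-0.0663), Rpl7a (-0.110), Lars (0.0384), Tomm20 H3025F06 (0.0195) and the Ftl1 clones (0.386, 0.249 and 0.181). Timeless was at 0.0131 on the Cy5 arrays and Tomm20 H3025F06 at 0.00724 with the second spots. With arrays left out, the Eif4e clones ran from -0.0637 to 0.840 (H3130B02), -0.205 to 0.806 (H3089A10) and -0.348 to 0.649 (H3012A09), Chaf1a from -0.0127 to 0.208, Tomm20 H3025F06 from -0.0936 to 0.0375, Apc from -0.214 to 0.136, Lars from -0.249 to 0.0844 and Timeless from -0.465 to 0.0815. With the lines paired by dye (a replicate block chosen after the data were seen), the 4 ways to pair gave 0 calls over all clones with array pairs or extraction pairs, and 979, 375, 470 and 241 clones with an unadjusted p under 0.05 for array pairs. The first, P1-P13, P3-P15, P5-P9 and P7-P11, had correlations of paired deviations from the line means of 0.490 to 0.846, in which arrays of one dye share its effect, and all 4 pairs were higher for 22 of the 26 ribosomal clones (9.20% of all clones). Over the other 3 ways these were 16 to 20 clones (4.16% to 6.49%). The pairs are not named by the sources used here. With 2 extractions per line and many dim spots among the clones outside the 5873 above background, small ratios could not be separated from the spread between arrays.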

Other observations

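Of the 570 clones with a gene symbol, all chosen by the authors' lists, 24 were at least 2-fold above the average in heavy polysomes of 3T3-tTA-eIF4E (1.08% of all clones) and 8 at least 2-fold below (0.977%). Among the 24 were Rpl27, Rps15a, Rps7 and Rps3a1 of the ribosomal protein lists, with means of 1.11, 1.09, 1.04 and 1.01. The others not described above were chosen after their values were seen. 1100001I22Rik (H3127H03) had a mean log2 ratio of 1.29 ± 0.52 (SD, n = 4 arrays), Gnaq (H3028A07), a G protein subunit, one of 1.29 ± 0.25 and Ipo9 (H3039H04), a nuclear import receptor, one of 1.23 ± 0.38. The parental means of these 3 were 0.61, 0.88 and 0.74. Myl6 (H3136G02), a myosin light chain, had a mean of 1.18 ± 0.37, Hdgf (H3130E05), a growth factor, one of 1.08 ± 0.34 and Snrpd2 (H3133F04), a core protein of the spliceosome, one of 1.06 ± 0.47, and all 4 arrays of each were above 0. For a further pair a single array made the mean. Arpc1b (H3019A08), of the actin-branching complex, was at 3.86 on P1 and at 0.13 to 0.49 on the others, and Nsun5 (H3086E12), an RNA methyltransferase, was at 3.84 on P3 and at -0.06 to 0.63 on the others. Adjusted p-values from limma over all clones were 0.164 for 1100001I22Rik, 0.187 for Gnaq, 0.195 for Ipo9 and 0.251 to 0.648 for the other 5.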
